A study of Bos taurus with 8 samples.

Results

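The growth hormone and insulin-like growth factor (IGF) axis was followed in liver through 10 genes: the growth hormone receptor GHR, the growth factors IGF1 and IGF2, the receptor IGF1R, the acid-labile subunit IGFALS and the binding proteins IGFBP1 to IGFBP5. They were found by their gene names on a 1-colour Agilent microarray, which reads the brightness of Cy3-labelled cRNA bound to probes of 60 bases, and each gene had 1 probe among 15008 in all. A probe was tested when it was well above background, by the scanner's own flag, on at least 4 of the 8 arrays. This held for 9 of the 10 genes and for 10985 probes, and the gene left out was IGF2.

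The samples came from Holstein bull cattle of 5 to 6 months with a rumen fistula, which ate roughage for 11 days, a high-grain diet for 2 days to bring on subacute ruminal acidosis (SARA), and roughage again. An egg yolk immunoglobulin holding an antibody against lipopolysaccharide was put into the rumen once a day for 14 days. Liver was sampled 2 days after the challenge in the 4 g group, which received 4 g of this preparation per head, and in the 0 g group, which received none and was challenged in the same way. Animals 19, 20, 23 and 24 each gave 1 array at 4 g and 1 at 0 g, so that the 8 arrays form 4 pairs. The labels call them separate samples and do not give the order of the doses.

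Growth hormone from the pituitary binds GHR on hepatocytes, and the kinase JAK2 and the factor STAT5 carry the signal to the IGF1 and IGFALS genes. Most IGF1 in blood travels in a complex with IGFALS and either IGFBP3 or IGFBP5, which holds it in the circulation, while IGFBP1 and IGFBP2 form smaller complexes. Insulin represses IGFBP1 in liver, and poor energy supply lowers hepatic IGF1 and raises IGFBP1 and IGFBP2, so liver is the organ where feeding state and growth hormone meet.

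Levels below are on the log2 scale, as processed signal over each array's own 75th percentile, and levels of different genes cannot be ranked, since each probe has its own brightness. The labels name liver as the tissue and their extraction protocol names rumen epithelium. All 15 hepatocyte markers looked up were well above background on the 8 arrays. The mean of 15 rumen and squamous epithelium markers on the array lay between −6.63 and −5.51 at 4 g and between −6.56 and −4.58 at 0 g. Of these 15, 7 were not flagged well above background on any array. The highest mean, −4.58, was on the 0 g array of animal 19, where 8 were well above background, against 4 or 5 on each other array. On it KRT6B stood at 0.56 and A2ML1 at −0.64, against −2.55 and −5.30 in the same animal at 4 g. KRT5 stood at −4.20 there and at −4.25 at 4 g. Of 14 pancreatic acinar genes on the array, all were well above background on the 0 g array of animal 23, where their mean was 6.62, against −4.96 to −3.46 on the 4 g arrays and −4.82 to −4.01 on the other 0 g arrays. The number well above background was 11 in animal 23 at 4 g, 8 in animal 24 at 4 g and 11 in animal 24 at 0 g. It was 5 on each array of animals 19 and 20. The dimmest arrays were those of animal 19 at 4 g and of animal 20 at 0 g, with 75th percentiles of 125.6 and 126, against 217.8 to 310.6 on the other 4 g arrays and 244 to 309.9 on the other 0 g arrays. Some probes split the arrays into a high and a low level with a gap of at least 2 log2 units, and of 44 such probes 30 set the 2 dim arrays apart. Of the other 14, both arrays of animal 19 lay on 1 level for 14, both of animal 20 for 13, both of animal 23 for 4 and both of animal 24 for 5. For 7 of them, among which were GIMAP4 and GIMAP6, the 4 g arrays of animals 23 and 24 shared one level and their 0 g arrays the other, so that in this pair of animals the labels for animal and dose may not describe the arrays as meant. Dose and animal cannot be told apart in that pair for certain, and each member's difference is therefore also given for animals 19 and 20 alone and for animals 23 and 24 alone.

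The probes of 5 members that the comparisons turn on are printed here as the array carries them, 5′ to 3′ and in lower case. In the IGFBP5 probe the capitals mark the 3 bases TGA at its end, the only stop codon in its first reading frame.
IGFBP5: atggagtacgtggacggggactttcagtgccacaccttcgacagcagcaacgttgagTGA
IGFALS: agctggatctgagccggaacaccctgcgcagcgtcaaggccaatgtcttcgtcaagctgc
IGF1R: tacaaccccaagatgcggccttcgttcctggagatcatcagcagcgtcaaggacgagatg
IGFBP2: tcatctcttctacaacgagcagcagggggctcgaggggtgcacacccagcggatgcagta
IGFBP3: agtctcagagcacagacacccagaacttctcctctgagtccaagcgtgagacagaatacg

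By the coordinates in the files (cattle assembly UMD 3.1), the IGFBP5 probe lies at chr2:105379127-105379186 on the minus strand and the IGFBP2 probe at chr2:105367026-105367085 on the plus strand, 12041 bases apart. The IGFBP1 probe lies at chr4:76720574-76720633 on the minus strand. The IGFBP3 probe, at chr4:76708763-76709296 on the plus strand, is 11277 bases from it, and its 60 bases are spread over 534 bases of genome and so are not contiguous there. In RefSeq's gene table (assembly ARS-UCD2.0), used for gene order and names alone, 0 genes lie between IGFBP1 and IGFBP3 and 0 between IGFBP2 and IGFBP5. The IGFALS probe lies at chr25:1367744-1367803 on the minus strand, and the IGF1R probe at chr21:8267711-8267770 on the plus strand. The remaining probes are those of IGF1 at chr5:66532901-66532960 (minus), GHR at chr20:32105499-32105558 (minus), IGF2 at chr29:50062513-50062572 (plus) and IGFBP4 at chr19:41337314-41337373 (plus). Which exon a probe lies in was not analysed here. The GHR probe was designed on a clone described there as a variant 5′ untranslated region with part of the coding sequence, so it may not read all GHR transcripts. The share of G and C ran from 35% in the IGF1 and IGFBP1 probes to 60% in the IGFALS and IGFBP2 probes.

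The comparison of 4 g with 0 g asked whether the antibody altered the axis in the same animals. IGFBP5 was the member with the widest gap and was lower at 4 g in 4 of 4 animals, the other members having differences of both signs. None of the 9 tested members passed limma's test adjusted over all 10985 probes (adjusted p = 1.00 for each), and neither did any other probe (0 called, 0%). At an unadjusted p under 0.05 limma called 1 of the 9, IGFBP5, against 120 of all tested probes (1.09%). Of the members 4 lay higher and 5 lower at 4 g, with a median log2 difference of −0.04, against 0.02 over all tested probes.

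**Figure D1:**
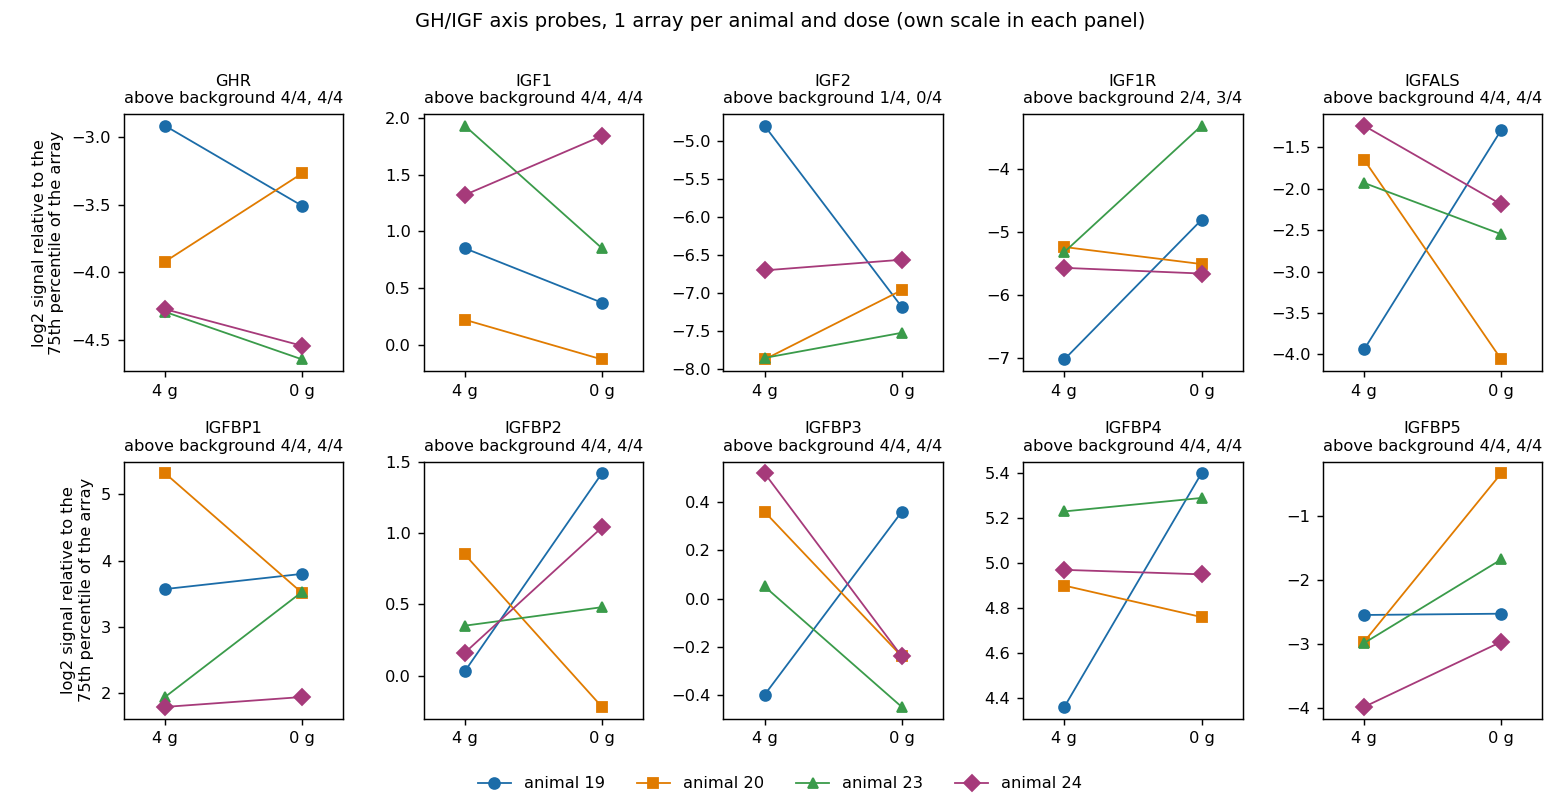
Log2 signal of the 10 axis genes over each array's 75th percentile, 4 g at left and 0 g at right in each panel, with a line for each of 4 animals and its own vertical scale in each panel. Only the IGFBP5 lines all lie higher at 0 g, that of animal 19 by 0.02, and the lines of animals 19 and 20 cross in the IGFALS panel.

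**Figure D2:**
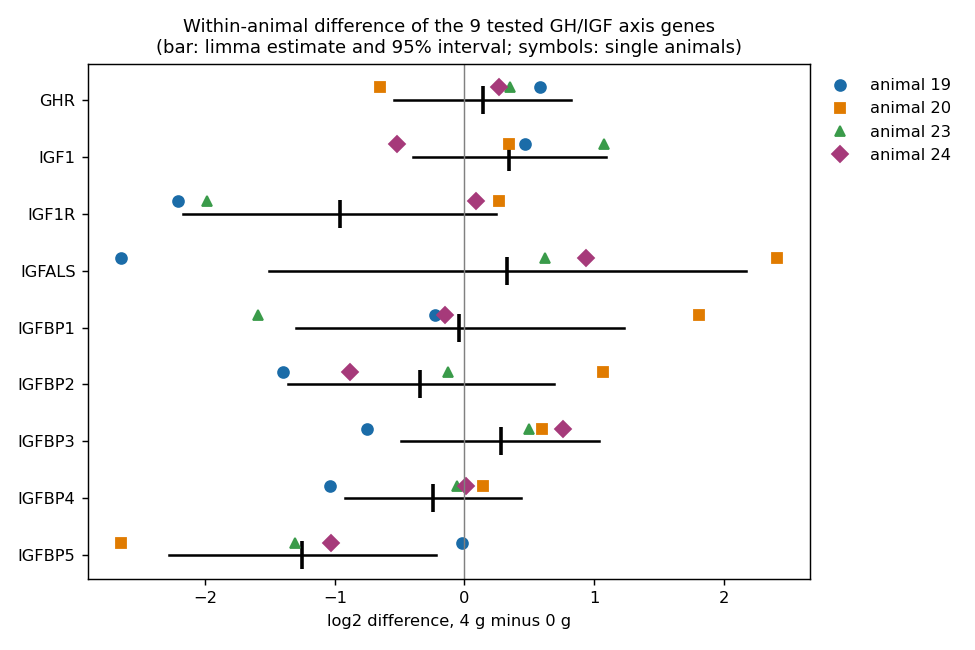
Log2 difference of 4 g minus 0 g for the 9 tested genes: the vertical tick is the limma estimate, the bar its 95% interval and each symbol 1 animal. The interval of IGFBP5, −2.28 to −0.22, leaves out 0, and those of the other 8 genes include it.

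GHR, the receptor that starts the axis, was faint but well above background on all 8 arrays. At 4 g it stood at −2.92, −3.92, −4.29 and −4.27 in animals 19, 20, 23 and 24, and at 0 g at −3.51, −3.27, −4.64 and −4.54. The groups overlapped, and the GHR signal was higher at 4 g in animals 19, 23 and 24 and lower in animal 20. The log2 difference was 0.14 (SE 0.28, 95% interval −0.54 to 0.82; limma unadjusted p = 0.642), −0.03 in animals 19 and 20 alone and 0.31 in animals 23 and 24 alone.

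IGF1, the main growth factor that liver releases, stood at 0.85, 0.22, 1.93 and 1.32 at 4 g in animals 19, 20, 23 and 24, and at 0.37, −0.13, 0.85 and 1.84 at 0 g. It was higher at 4 g in animals 19, 20 and 23 and lower in animal 24. Mean levels were 1.08 ± 0.72 at 4 g and 0.74 ± 0.84 at 0 g (SD, n = 4 animals each). The log2 difference within animals was 0.34 (SE 0.31, 95% interval −0.40 to 1.09; limma unadjusted p = 0.307). It was 0.41 in animals 19 and 20 alone, 0.28 in animals 23 and 24 alone and 0.10 without animal 23. A rise of IGF1 above 2.13-fold lay outside the interval.

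IGF2, a growth factor best known from fetal life, passed the background flag on 1 of the 4 g arrays (animal 19, −4.80) and on 0 of the 0 g arrays. The other 7 values ran from −7.87 to −6.56, so no fold is given. Its probe was designed on a partial clone described in the files as similar to IGF-II, and the values say nothing about transcripts that this probe does not match.

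IGF1R, the tyrosine kinase receptor of IGF1, was near the limit of measurement, with 2 of 4 arrays well above background at 4 g and 3 of 4 at 0 g. At 4 g it stood at −7.02, −5.24, −5.32 and −5.57 in animals 19, 20, 23 and 24, and at 0 g at −4.81, −5.51, −3.32 and −5.66. The highest value was on the array with the strongest pancreatic transcripts (animal 23, 0 g) and the lowest on the dim 4 g array of animal 19. The log2 difference of −0.96 (SE 0.50; limma unadjusted p = 0.0995) was made of −2.21 and −1.99 in animals 19 and 23 and of 0.27 and 0.09 in animals 20 and 24. In animals 19 and 20 alone it was −0.97 and in animals 23 and 24 alone −0.95. It was −0.46 with no block and without the 0 g array of animal 23, −0.55 without animal 19 and −1.37 without animal 20 (limma unadjusted p = 0.0331). Without animal 23 it was −0.62. With normexp background correction it was −0.24, where an offset of 50 was added beside processed IGF1R signals of 0.966 to 27.2. The part of the pancreatic transcripts in the IGF1R difference was not tested further.

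IGFALS, which hepatocytes make and which ties the circulating IGF complex together, differed widely between the 2 arrays of an animal. At 4 g it stood at −3.94, −1.65, −1.93 and −1.24 in animals 19, 20, 23 and 24, and at 0 g at −1.29, −4.06, −2.55 and −2.19. The lowest values were those of the 2 dim arrays, 1 at each dose, and the other 6 arrays lay between −2.55 and −1.24. Its log2 difference was −2.65 in animal 19 and 2.41 in animal 20, and 0.62 and 0.94 in animals 23 and 24. The mean over the 4 animals was 0.33 (95% interval −1.51 to 2.17; limma unadjusted p = 0.680), with −0.12 in animals 19 and 20 alone and 0.78 in animals 23 and 24 alone. Without animal 19 it was 1.32 (limma unadjusted p = 0.0192) and without animal 20 it was −0.36. With the 2 dim arrays left out and no block it was 0.40 (limma unadjusted p = 0.292).

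IGFBP1, the insulin-repressed binding protein, stood at 3.57, 5.32, 1.94 and 1.79 at 4 g in animals 19, 20, 23 and 24, and at 3.80, 3.51, 3.53 and 1.94 at 0 g. It ranged 11.6-fold over the 8 arrays. Animal 20 was higher at 4 g by 1.81 and animal 23 differed by −1.59, while animals 19 and 24 differed by −0.23 and −0.15. The 3.53 of animal 23 at 0 g was on the array with the strongest pancreatic transcripts, whose part in IGFBP1 was not tested. The mean difference was −0.04 (SE 0.52, 95% interval −1.30 to 1.23; limma unadjusted p = 0.944), made of 0.79 in animals 19 and 20 and −0.87 in animals 23 and 24. Its interval, as a fold, ran from 0.405 to 2.34 times the 0 g level.

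IGFBP2, another small-complex carrier, stood at 0.03, 0.85, 0.35 and 0.16 at 4 g in animals 19, 20, 23 and 24, and at 1.42, −0.22, 0.48 and 1.04 at 0 g. It was lower at 4 g in 3 of 4 animals and higher by 1.07 in animal 20, whose 0 g array was dim. The log2 difference was −0.34 (SE 0.42; limma unadjusted p = 0.455), −0.17 in animals 19 and 20 alone and −0.51 in animals 23 and 24 alone. It was −0.80 without animal 20 and 0.02 without animal 19.

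IGFBP3, the chief carrier of IGF1 in blood, varied less over the arrays than IGFBP1, IGFBP2 and IGFBP5. It stood at −0.40, 0.36, 0.05 and 0.52 at 4 g in animals 19, 20, 23 and 24, and at 0.36, −0.24, −0.45 and −0.24 at 0 g. Animals 20, 23 and 24 were higher at 4 g by 0.60, 0.50 and 0.76, and animal 19, whose 4 g array was dim, differed by −0.75. The log2 difference was 0.28 (SE 0.32; limma unadjusted p = 0.417), 0.62 without animal 19 (limma unadjusted p = 0.0431), −0.08 in animals 19 and 20 alone and 0.63 in animals 23 and 24 alone.

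IGFBP4, which mostly restrains IGF action, stood at 4.36, 4.90, 5.23 and 4.97 at 4 g in animals 19, 20, 23 and 24, and at 5.40, 4.76, 5.29 and 4.95 at 0 g. Apart from the pair of animal 19, which differed by −1.04, the arrays of an animal lay at most 0.14 apart. The log2 difference was −0.24 (SE 0.28, 95% interval −0.92 to 0.44; limma unadjusted p = 0.429), −0.45 in animals 19 and 20 alone, −0.03 in animals 23 and 24 alone and 0.03 without animal 19. GHR and IGFBP4 were the 2 members whose interval stayed within 1 log2 unit, a 2-fold change, to either side, as it did for 64.2% of all tested probes. GHR was faint (processed signals 11 to 21.5) and its probe may not read all GHR transcripts, so its interval bounds that probe's signal alone.

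IGFBP5, a carrier that also binds matrix, stood at −2.55, −2.97, −2.99 and −3.99 at 4 g in animals 19, 20, 23 and 24, and at −2.53, −0.33, −1.68 and −2.97 at 0 g. The 4 g value was the lower in each animal, with log2 differences of −2.65, −1.31 and −1.03 in animals 20, 23 and 24 and of −0.02 in animal 19. The groups overlapped. Mean levels were −3.13 ± 0.61 at 4 g and −1.88 ± 1.16 at 0 g (SD, n = 4 animals each), a log2 difference of −1.25 (SE 0.43, 95% interval −2.28 to −0.22; limma unadjusted p = 0.0245, adjusted p = 1.00), or 0.420 times the 0 g level. The share of all tested probes that were lower in 4 of 4 animals was 2.1%, and 5.23% had the same sign in 4 of 4 animals in either direction. An exact sign-flip permutation test over the 4 animals gave a 2-sided p = 0.125, the smallest that 4 pairs allow. The difference was −1.34 in animals 19 and 20 alone (limma unadjusted p = 0.122) and −1.17 in animals 23 and 24 alone (0.0126). The highest level, −0.33, was on the dim 0 g array of animal 20, and without animal 20 the difference was −0.79 (limma unadjusted p = 0.0663). Without animal 19 it was −1.66 (limma unadjusted p = 0.00573) and with array weights −1.32 (0.00721). Without animal 23 it was −1.23 (limma unadjusted p = 0.0633), without animal 24 −1.33 (0.0602) and without the 0 g array of animal 23, with no block, −1.19 (0.0941). That 0 g array, with IGFBP5 at −1.68, had the strongest pancreatic transcripts, whose part in IGFBP5 was not tested further. With normexp background correction the IGFBP5 difference was −0.50 (limma unadjusted p = 0.279), and without the 2 dim arrays and with no block −0.93 (0.0557). The normexp setting started from the mean spot signal and the median background, not from the processed signal, and added an offset of 50. Processed IGFBP5 signals were 14.1 to 100. The part of the offset in the normexp value was not tested.

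Markers of stellate cells and fibroblasts, the matrix-forming and contractile cells of liver, were read beside IGFBP5. Of 14 such genes tested, 11 lay lower at 4 g and 3 lay higher (PDGFRB, LRAT and RGS5), against 4948 lower among all 10985 tested probes. Their median log2 difference was −0.43, and 4 of them were lower in all 4 animals, against 2.1% of all tested probes. With limma, 0 passed the adjusted test and 3 were lower at an unadjusted p under 0.05, against 0.746% of all tested probes: the filament gene DES (−1.13), the actin-binding TAGLN (−1.03) and the collagen COL1A2 (−0.94). The list had been seen to lie lower in earlier results of these data, so it is no separate evidence. Its median was −0.27 in animal 19, −0.51 in animal 20, −0.34 in animal 23 and −0.43 in animal 24, while IGFBP5 differed by −0.02 in animal 19. The mean level of the list lay between −1.37 and −0.51 at 4 g and between −1.00 and −0.15 at 0 g. The endothelial list had 12 of 12 genes lower (median −0.19), the Kupffer cell list 5 of 7 (median −0.13) and the hepatocyte list 5 of 15 (median 0.06). FABP4, which binds fatty acids in fat cells and was the 1 gene of 5 tested on the adipocyte list with an unadjusted p under 0.05, differed by −2.44 (SE 0.26; limma adjusted p = 0.604). In bulk liver, fewer cells of a type and less RNA per cell cannot be told apart, and the part of these cells in the IGFBP5 difference was not tested.

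**Figure D3:**
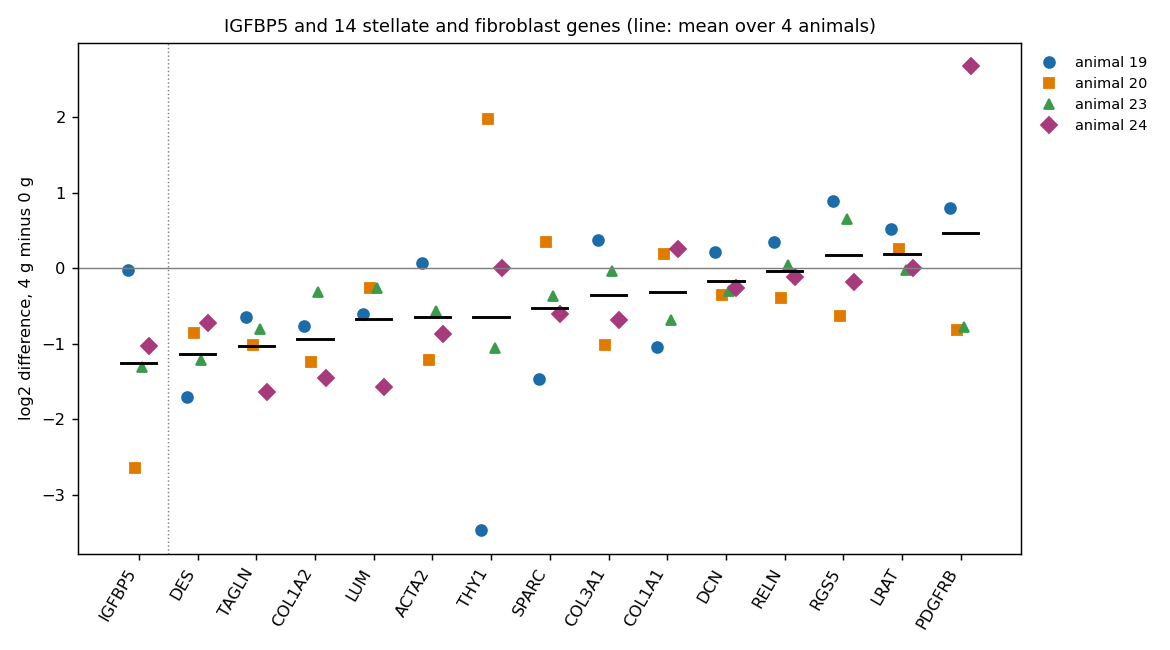
Log2 difference of 4 g minus 0 g for IGFBP5, left of the dotted line, and for 14 stellate cell and fibroblast genes ordered by their mean, with 1 symbol per animal and a line at the mean. DES, TAGLN, COL1A2 and LUM lie below 0 in every animal, and PDGFRB spreads widest on the positive side.

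The mean level of IGFALS and of IGFBP5 differed between the 2 dim arrays and the others by more than that of most probes. The mean of the 2 dim arrays lay 2.19 log2 units under that of the other 6 for IGFALS, a difference of −2.19 with 1.47% of all tested probes lower still. For IGF1R it was −1.28, for IGFBP2 −0.81 and for IGF1 −0.73. IGFBP5 and GHR had higher mean levels on the dim arrays, with differences of 1.42 and 1.1, above 97.8% and 93.7% of the tested probes. For IGFBP5 this rested on the array of animal 20 at 0 g (−0.33). The dim array of animal 19 at 4 g (−2.55) lay within the range of the other 6, −3.99 to −1.68. For GHR the processed signals before scaling were 16.6 and 13.1 on the dim arrays, within the 11 to 21.5 of the others. Over all tested probes the median difference was 0.12, and the range from the 5th to the 95th percentile ran from −1.49 to 1.18. Both dim arrays were in the first slide row, so this difference also holds that between the rows. Within the first row the dim arrays differed from the other 2 by −2.53 for IGFALS, 1.31 for IGFBP5, −1.24 for IGF1R, −1.23 for IGFBP2, −1.02 for IGFBP1, 0.62 for GHR and 0.07 for IGF1, with a range from −1.54 to 1.07 between the 5th and 95th percentiles of all tested probes. By either measure IGFALS and IGFBP5 were the 2 of the 9 members outside that range, IGFBP5 through the array of animal 20 at 0 g alone. The part of array brightness was not tested beyond the fits without these arrays.

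**Figure D4:**
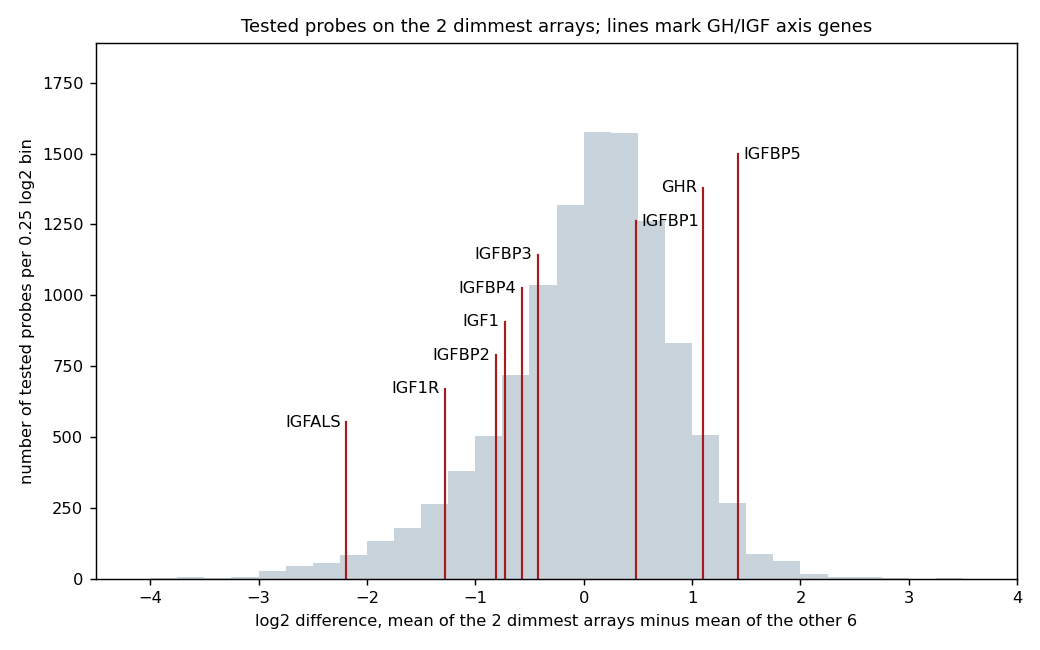
Number of tested probes by the log2 difference between the mean of the 2 dimmest arrays (4 g of animal 19 and 0 g of animal 20) and the mean of the other 6, in bins of 0.25, with red lines at the 9 tested axis genes, whose height has no meaning. IGFALS at −2.19 lies in the lower tail and IGFBP5 at 1.42 in the upper tail. The IGFBP5 value rests on animal 20 at 0 g (−0.33), since animal 19 at 4 g (−2.55) lies within the range of the other 6 arrays.

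The animals were also compared with each other, since the spread over the arrays was wide for most members: the median SD over the 8 arrays was 0.75 log2 units for the 9 members and 0.41 for all tested probes. IGFBP1 (1.22), IGFALS (1.1), IGFBP5 (1.09) and IGF1R (1.03) lay above 95.5% or more of the tested probes in this measure, while IGFBP3 (0.38) and IGFBP4 (0.33) lay under the median. IGF1 was lower and IGFBP1 and the GHR variant higher in animals 19 and 20 than in animals 23 and 24. The mean of the 2 arrays was 0.61, 0.05, 1.39 and 1.58 for IGF1 in animals 19, 20, 23 and 24. For IGFBP1 it was 3.68, 4.41, 2.74 and 1.86, and for GHR −3.22, −3.59, −4.46 and −4.41. In limma's F-test on the animal terms none of these passed after adjustment over all probes (adjusted p = 0.985 for each), nor did any other probe (0 called). The same limma F-test had an unadjusted p = 0.0371 for IGF1, an unadjusted p = 0.0461 for GHR and an unadjusted p = 0.0523 for IGFBP1, so 2 of 9 members lay under 0.05, against 2.72% of all tested probes.

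Animals 19 and 20 were hybridised in the first row of the slide and animals 23 and 24 in the second, so slide row and animal cannot be told apart. Animals 23 and 24 less animals 19 and 20 gave 1.16 for IGF1, −1.75 for IGFBP1 and −1.03 for GHR, against a median of −0.09 over the tested probes. The rows did not overlap for GHR and, by less than 0.01, for IGF1, as for 9.58% of all tested probes. For GHR this held only after scaling to the 75th percentile, which ran from 125.6 to 244 in the first row and from 224 to 310.6 in the second. The part of this scaling in the GHR difference was not tested. For IGFBP1 the 0 g array of animal 23 (3.53) reached the range of the first row.

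The genes whose centred profile over the 8 arrays came closest to IGFBP1, by root mean square difference among 9249 probes well above background on all arrays, were FBLN2 (0.474 log2 units), UPK3BL2 (0.507), NNAT (0.706) and KRT5 (0.734). The same measure gave for IGFALS NADK (0.208), APEH (0.232), MTX1 (0.233) and VTN (0.252). These were chosen for nearness to IGFALS, which was lowest on the 2 dim arrays, so their low levels there follow from the choice. The vitronectin gene VTN, for example, stood at 2.97, 5.29, 4.60 and 5.28 at 4 g and at 5.57, 3.24, 4.57 and 4.83 at 0 g in animals 19, 20, 23 and 24.

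Around the axis, 52 related genes of signalling, receptors and regulators were looked up, of which 46 were on the array under that name and 42 were tested. Of these, 24 were higher and 18 lower at 4 g (median 0.02), and limma called 0 after adjustment and 0 at an unadjusted p under 0.05. The kinase JAK2, which relays the growth hormone signal, differed by 0.02 (SE 0.24) and the factor STAT5A, measured on 5 of 8 arrays, by 0.15 (SE 0.43). STAT5B and the IGFBP protease PAPPA were not analysed here. SOCS2 and CISH, feedback inhibitors that growth hormone induces, differed by 0.03 (SE 0.34) and 0.08 (SE 0.35). SOCS2 stood at 2.96, 3.27, 3.09 and 1.79 at 4 g and at 2.64, 3.90, 2.09 and 2.36 at 0 g in animals 19, 20, 23 and 24, and it was higher at 4 g in animals 19 and 23 alone. The insulin receptor INSR differed by −0.02 (SE 0.27), and IGF2R, which clears IGF2, by 0.16 (SE 0.26).

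Among the remaining binding proteins, IGFBP6, a carrier that prefers IGF2, stood at 0.87, 2.18, 1.99 and 1.49 at 4 g and at 2.20, 2.50, 2.36 and 1.97 at 0 g in animals 19, 20, 23 and 24. It was lower at 4 g in 4 of 4 animals, with a mean log2 difference of −0.62 (SE 0.27; limma unadjusted p = 0.055, adjusted p = 1.00). IGFBP7, a weak IGF binder of vessel walls, differed by −0.16 (SE 0.21) and was also lower in 4 of 4 animals. Of all 42 related genes tested, 2 were lower in 4 of 4 animals, IGFBP6 and IGFBP7, against 2.1% of all tested probes. The liver transcription factor ONECUT1 was higher at 4 g in 4 of 4 animals, as were 3.13% of all tested probes, with a mean log2 difference of 0.59 (SE 0.27; limma unadjusted p = 0.069, adjusted p = 1.00).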

How the data were processed

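Liver RNA of 4 cattle at 4 g and 0 g was measured on 8 arrays of 1 slide and 1 scan. Agilent Feature Extraction 11.0.1.1 made the intensity values, with background subtraction and detrending switched on, per the file headers. The submitters' processing notes name version 9.5. The deposited series table holds the authors' log2 values, which correlated with the log2 signal of the same array at 1 across 15008 probes, with column medians of −3.04 to −2.84.

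Of 15646 features, 536 control features and 48 outlier spots were left out, and 0 spots were saturated. The log2 signal less the 75th percentile of the array was averaged over the spots of a probe. Between 64.4% and 80.4% of the probes were well above background on an array, and the number of arrays limits the precision. Members were matched by the gene name in the files. Names of other genes came from the transcript accession in a RefSeq gene table (11194 probes) or else from the file.

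The 4 g minus 0 g difference was tested in R 4.3.3 using limma 3.58.1 (2-sided, animal as a block, Benjamini-Hochberg adjustment over 10985 probes). The pairing follows the animal numbers in the labels. As a check, the 2 arrays of one animal, each taken less its dose mean, had a correlation across probes of −0.19, −0.18, 0.21 and 0.13 in animals 19, 20, 23 and 24. The fit was tested on simulated data of 10985 probes, of which 200 were changed, with independent normal errors of limma's moderated variance. It called 80% of 4-fold and 3% of 2-fold changes, and also 11 unchanged probes. The simulation held no dim arrays. Other background corrections, normalizations, filters, blocks, weights and left-out arrays were tried. The normexp correction used an offset of 50. The smallest exact p with 4 pairs is 0.125. The members, lists and tests were chosen with earlier results of these data known. Named were the members, fixed signalling genes, related genes at an unadjusted p under 0.05 and the 4 nearest profiles of the 2 most variable members, with a few more singled out after their values were seen. Markers of adipocytes (median log2 difference −0.43, 4 of 5 lower), islets (−0.81, 2 of 3 lower), acinar cells (−2.69, 8 of 8 lower), red blood cells (0.00, 2 of 3 lower) and rumen epithelium (−0.43, 5 of 5 lower) were also fixed. Related genes not named are given by counts alone.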

Additional observations from a re-analysis of the deposited data

Results flagged for a closer look

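IGFBP1 was 1.79 at 4 g in animal 24, and at 0 g the same animal stood apart, at 1.94 against 3.51 to 3.80 in the other animals. IGF2R at 0 g stood apart in animal 23, at 3.47 against 3.99 to 4.00 in the other animals, on the array with the strongest pancreatic transcripts. The gap to the nearest sample was 0.845 of the range of the 4 samples for IGFBP1 and 0.978 for IGF2R, above Dixon's 95% critical value. These were 2 of 36 groups of 4 samples screened, and chance alone marks about 1 group in 20.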

How the results depend on the processing

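Over the 9 tested members and 18 other settings, 147 of 161 log2 differences kept their direction, 14 turned and 0 passed the adjusted test. Those of IGF1, IGF1R and IGFBP5 did not turn in any of them. With normexp background correction, which added an offset of 50, GHR (processed signals 11 to 21.5) was −0.04 and IGFBP1 0.06. In animals 19 and 20 alone GHR was −0.03, IGFALS −0.12, IGFBP1 0.79 and IGFBP3 −0.08. Without the 0 g array of animal 23 and with no block GHR was −0.08 and IGFBP1 0.07. In animals 23 and 24 alone, a setting chosen after seeing the data, none turned. Leaving out 1 animal in turn gave −0.01 to 0.40 for GHR, −0.36 to 1.32 for IGFALS, −0.66 to 0.48 for IGFBP1, −0.80 to 0.02 for IGFBP2 and −0.36 to 0.03 for IGFBP4. The cause was not tested.

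The number of members at an unadjusted p under 0.05 was 1, and 0 to 3 when 1 animal was left out (IGFBP5, IGFALS and IGFBP3 without animal 19, IGF1R without animal 20). It was 0 with normexp, in animals 19 and 20 alone, without the 0 g array of animal 23, and without the 2 dimmest arrays, and 2 in animals 23 and 24 alone (IGFBP5 and IGFALS). Over all probes the adjusted test called 0, and 5 without the 2 dimmest arrays and with no block. At an unadjusted p under 0.05 limma called 120 probes, against 17 with normexp, 16 in animals 19 and 20 alone, 50 without the 0 g array of animal 23, 186 with no filter, 306 without the 2 dimmest arrays, 361 with array weights, 450 in animals 23 and 24 alone and 57 to 408 when 1 animal was left out. The F-test between animals called 0, and 0 to 1 when 1 animal was left out. With no replicate block the members' log2 differences were the same, at −1.25 for IGFBP5 (limma unadjusted p = 0.0492), and the block changed no call. IGF1R has no value under the filter on all 8 arrays.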
